A study of Mus musculus with 4 samples.

Results

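Transcription factors of blood stem and progenitor cells were followed in *Ebf1*-/- HPCs (hematopoietic progenitor cells) that carried the *Mir195* virus or its empty counterpart. The set comprised *Hoxa9*, *Meis1*, *Lmo2*, *Gata2*, *Gfi1*, *Gfi1b*, *Mecom*, *Hlf*, *Myc* and *Mycn*, chosen by name and not by their signal. All 10 genes are on the array, which names 31829 genes, and they are read by 12 probes. RNA came from Lin- cells of the fetal liver of *Ebf1*-/- mouse embryos on the C57BL/6 background, so that the cells of every group lacked intact *Ebf1*, the factor that normally commits progenitors to the B lineage. The control cells (EMPTY, 2 arrays) received the retroviral vector MDH1-PGK-GFP, and the miR-195 cells (2 arrays) the same vector with the *Mir195* segment, which was amplified from a human cell line. The embryos were at mid-gestation. Nothing says whether the replicates came from separate embryos or cultures, so p-values measure the spread between these arrays only, which may be technical. As the general condition of the methods, the cells were grown on OP9 stroma, a bone marrow stromal line of the mouse, with SCF, IL-7 and Flt-ligand at 10 ng/mL each, and about 100 ng of RNA was labelled per array.

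These factors form a network that is known from fetal liver and adult marrow. HOXA9 and MEIS1 bind DNA together and keep progenitors dividing, LMO2 is the bridge of a complex in which TAL1 and a GATA factor hold the DNA, and GFI1 and GFI1B are zinc finger repressors that share their corepressors. MECOM and HLF are known as markers and regulators of the most immature stem cells, while MYC and MYCN pair with MAX and drive growth. As progenitors mature, the stem cell factors are known to decline.

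The microRNA delivered by the virus acts through its seed, bases 2 to 8, shown in capitals in the mature mouse sequence of RefSeq (the segment in the virus is human), which lies at chr11:70235062-70235082 on the plus strand of GRCm38.p6.
mmu-miR-195a-5p: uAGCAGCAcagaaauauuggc

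The array reads each factor through probes of 60 bases. Stretches of 30 bases (31 to 60 for *Gfi1b*, 1 to 30 for the others) are shown for the probes whose identity matters below, namely both probes of *Hoxa9*, which gave like results, *Meis1*, which had the largest difference, both dim probes of *Mecom*, and the related genes *Gfi1* and *Gfi1b* and *Myc* and *Mycn*, which might be thought to share signal. Capitals mark AATAAA, the polyadenylation signal.
Hoxa9 (A_55_P1979768): taaaaagagagcaagctagaaagaaaaaga
Hoxa9 (A_55_P2066103): tttgtccctgactgactatgcttgtggttc
Meis1 (A_55_P1995572): gtcatgtgtgtatttttccatagtcccacc
Mecom (A_51_P482148): cccgcttgaagctttgaaagaaaaatactt
Mecom (A_55_P2111172): gttttgtccctggacacatccttgggaagg
Gfi1 (A_55_P1977008): gtgagggttgtagacgttcctaaatcttct
Gfi1b (A_51_P370678): gttgatgtaaatgtaAATAAAggtgggttt
Myc (A_52_P108346): aacagttgaaacacaaactcgaacagcttc
Mycn (A_52_P536494): tgtactaattcctacacggcctgtatactt

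The longest run of bases shared by the *Gfi1* and *Gfi1b* probes was 5, and it was also 5 for *Myc* and *Mycn* and for the *Mecom* probes. The *Hoxa9* probes shared a run of at most 7 bases and therefore read different stretches of the transcript. TGCTGCT, the match to the seed on the strand of the probe, was in 0 of the 12 probes and in 0.804% of all 39429 probes. AGCAGCA, its reverse complement, was also in 0 of 12, against 0.609%. AATAAA was in 1 of 12, the probe of *Gfi1b*, and in 12.6% of all probes. These counts describe only the 60 bases of each probe. The exon or UTR under each probe was not determined here.

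Of the 39429 probes, 60.1% to 62.6% per array were well above background. Levels are given as log2 signal minus the 75th percentile of the array, which is the level 0. Differences are log2 fold changes, miR-195 minus EMPTY, tested with limma over 23723 probes, with a Benjamini-Hochberg adjusted p of 0.05 as the threshold. The 4 arrays share a slide and each has its own place on it, so the place of an array cannot be told apart from its virus. The smallest two-sided p of an exact permutation test with 2 arrays per virus is 0.333. The closest arrays were of different viruses, EMPTY replicate 2 and miR-195 replicate 1 (r = 0.997), whereas the miR-195 arrays correlated with r = 0.987, and miR-195 replicate 2 had the lowest correlation with every other array. *Ebf1* itself is read by 1 probe, at 2.01 and 1.89 with EMPTY and 1.85 and 2.03 with miR-195. The probe was well above background on every array and its levels overlapped between the viruses, and whether it lies within the disrupted part of the gene was not determined here.

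Of the 10 factors, 7 were expressed in both cultures, namely *Hoxa9*, *Meis1*, *Lmo2*, *Gfi1*, *Gfi1b*, *Myc* and *Mycn*, whose 8 probes were well above background on all 4 arrays. *Gata2*, *Mecom* and *Hlf*, the remaining 3 genes with 4 probes, were at or near background and were not tested. None of the 8 tested probes passed the threshold in limma (lowest adjusted p = 0.766, with 0 of 8 also at an unadjusted p of 0.05 and in the methods' t-test). Of all tested probes 0% passed it, and 8.34% had an unadjusted p under 0.05 (6.25% higher and 2.1% lower in the miR-195 cells). A log2 fold change of at least 1 in either direction was found for 0 of the 8 and for 1.84% of all probes. The mean was higher in the miR-195 cells for 7 of the 8 probes, against 53% of all probes. In 4 of the 8, which belong to 3 genes, both miR-195 arrays lay above both EMPTY arrays, against 23.4% of all probes, and in 0 they lay below, against 14.4% (37.7% of all probes without overlap in either direction). The median log2 fold change was 0.15 for the 8 probes and 0.01 for all probes.

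**Figure D1:**
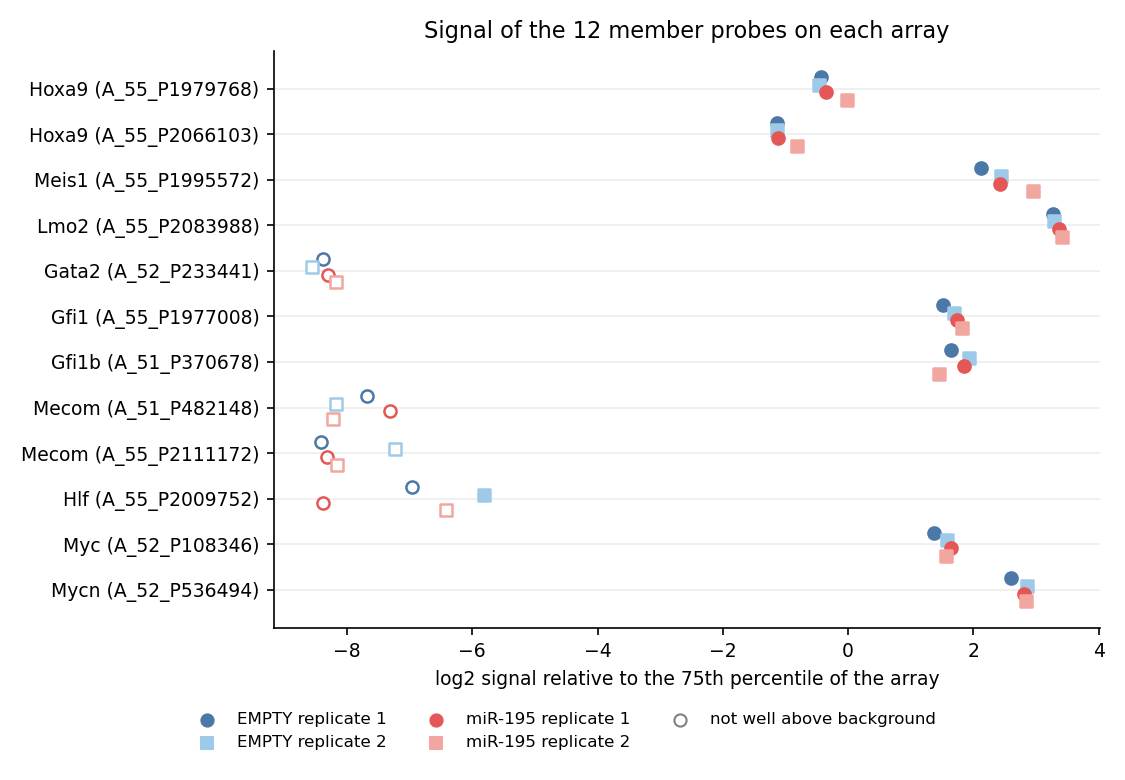
Log2 signal minus the 75th percentile of its array (x axis) for the 12 probes of the 10 factors, with 1 point per array (blue for EMPTY, red for miR-195, circles for replicate 1 and squares for replicate 2) and open points where the spot was not well above background. The probes of *Gata2* and *Mecom* are open on all 4 arrays and that of *Hlf* on 3, and the filled points of the other probes lie close together. Levels of different probes are not comparable.

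*Meis1* and the first probe of *Hoxa9* showed the largest differences of the set. For *Hoxa9* the difference came mainly from miR-195 replicate 2, and for *Meis1* from that array and from EMPTY replicate 1. The first probe of *Hoxa9*, the homeobox factor of progenitors whose gene lies at chr6:52223097-52227370 of GRCm38.p6, gave -0.43 and -0.46 with EMPTY and -0.35 and -0.02 with miR-195. The groups did not overlap, but miR-195 replicate 1 was closer to the EMPTY arrays than to miR-195 replicate 2. The log2 fold change was 0.26 (standard error, SE, 0.16, 95% interval -0.15 to 0.67, adjusted p = 0.789 from limma). The other *Hoxa9* probe was at -1.14 with EMPTY on both arrays and at -1.12 and -0.81 with miR-195. Its profile was the same, with miR-195 replicate 2 alone above the other arrays, and its log2 fold change was 0.17 (SE 0.15, 95% interval -0.23 to 0.57, adjusted p = 0.873).

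*Meis1*, the TALE homeobox partner of HOXA9 at chr11:18880428-19019651, stood at 2.11 and 2.44 in the EMPTY cells and at 2.42 and 2.95 in the miR-195 cells. EMPTY replicate 1 was the lowest and miR-195 replicate 2 the highest, while the other arrays were alike, so the groups overlapped. The log2 fold change was 0.41 (SE 0.23, 95% interval -0.20 to 1.02, adjusted p = 0.766), larger in size than that of 86.9% of the tested probes. Without miR-195 replicate 2 it was 0.14, and the *Hoxa9* probes gave 0.09 and 0.01. Without miR-195 replicate 1 the *Meis1* value was 0.68 (adjusted p = 0.146) and the *Hoxa9* values 0.43 and 0.33, none of them past the threshold, with 1 array left for miR-195. Without EMPTY replicate 1 the *Meis1* value was 0.24.

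The array on which *Hoxa9* and *Meis1* were highest was also the one with the most signal of stromal genes. Of 9 markers of OP9 stroma, 7 were tested and none passed the threshold. All 7 had a higher mean in the miR-195 cells, against 52.2% of all tested genes. Their median log2 fold change was 0.26, against 0.01. In only 1 of the 7 did both miR-195 arrays lie above both EMPTY arrays, against 23.1% of all genes. The summed signal of all 9, in multiples of the 75th percentile, was 10.1 and 11 with EMPTY and 9.68 and 17.8 with miR-195. Each of the 7 tested markers was highest on miR-195 replicate 2. *Sparc*, a matrix glycoprotein that carried 56.4% to 59.6% of the sum, had log2 levels of 2.51, 2.63, 2.46 and 3.41 in the same order. *Pdgfra* was well above background on no array and *Vcam1* on 2. The part of stromal RNA in the *Hoxa9* and *Meis1* values was not tested. The labels and methods do not say whether infected cells were sorted, or cells separated from the stroma, before RNA isolation. Fewer cells of a type cannot be told apart from less RNA per cell in RNA pooled from many cells.

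**Figure D2:**
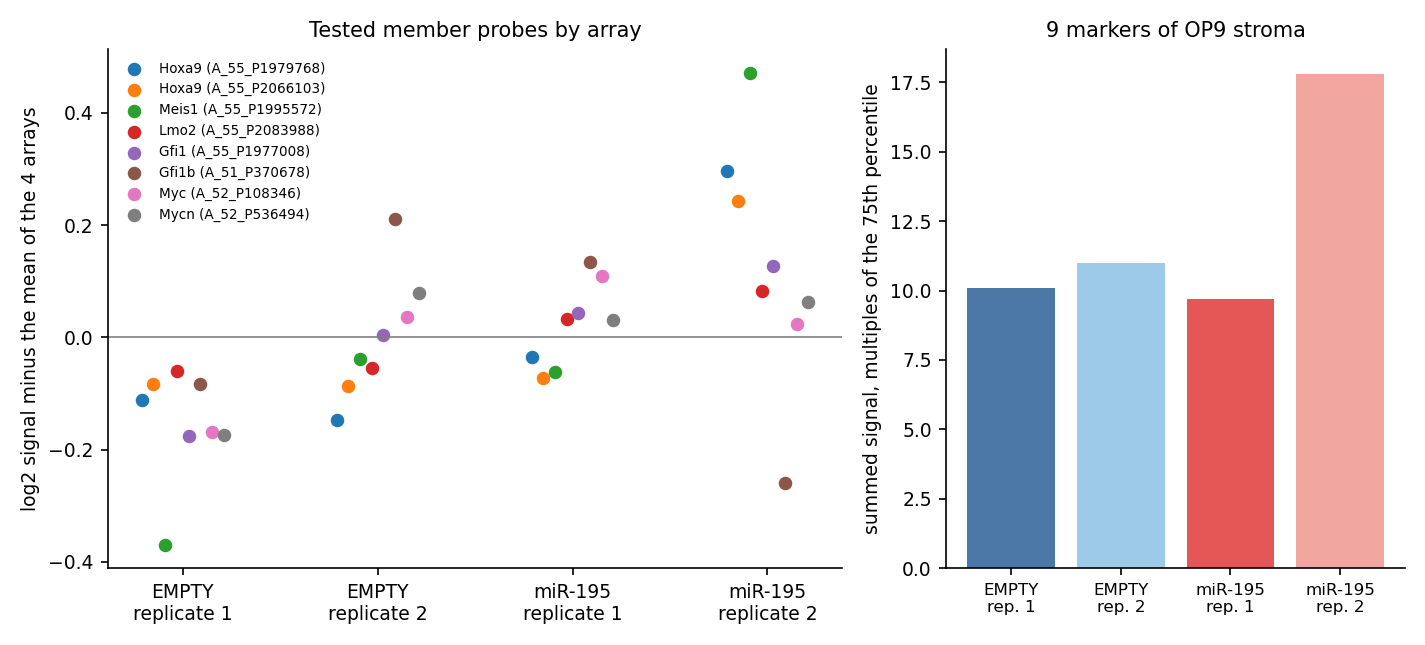
Left, the log2 signal of each of the 8 tested probes minus its mean over the 4 arrays (y axis) for each array (x axis). Right, the summed signal of 9 markers of OP9 stroma in multiples of the 75th percentile of the array. *Meis1* and both *Hoxa9* probes are highest on miR-195 replicate 2, where the stromal sum is 17.8 against 9.68 to 11 on the other arrays, and *Gfi1b* is lowest there.

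Among the relatives and cofactors of HOXA9 and MEIS1 the differences went both ways. Of 16 genes listed, 13 were tested and none passed the threshold, with 8 means higher and 5 lower in the miR-195 cells and a median of 0.09, against 52.2% higher and a median of 0.01 over all 19037 tested genes. In 2 of the 13 the miR-195 arrays lay above the EMPTY arrays and in 0 below, against 23.1% and 14.7% of all genes. *Pbx3*, a TALE partner of HOXA9, measured -2.72 and -3.21 with EMPTY and -3.00 and -5.44 with miR-195. The drop was on miR-195 replicate 2 alone. Its log2 fold change of -1.26 (SE 0.82, adjusted p = 0.806) was -0.03 without that array, -2.48 without miR-195 replicate 1 (adjusted p = 0.00536 in limma) and -0.36 after the normexp background correction. Without miR-195 replicate 1 the miR-195 side is the low array alone, so that p takes its spread from the EMPTY arrays and from limma's pooling over probes. *Meis3*, a paralog of *Meis1*, gave -1.62 and -1.38 with EMPTY and -1.25 and -1.16 with miR-195, without overlap (log2 fold change 0.30, SE 0.14, adjusted p = 0.684). *Hoxb5* and *Meis2* were well above background on no array.

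*Lmo2*, which encodes the LIM-only adaptor and lies at chr2:103957903-103981878, differed by at most 0.05 between replicates. Its levels were 3.27 and 3.28 with EMPTY and 3.37 and 3.42 with miR-195. The groups were separate, and the log2 fold change was 0.11 (SE 0.11, 95% interval -0.18 to 0.41, adjusted p = 0.886), and it was 0.02 when the arrays were scaled by their median.

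*Gata2*, the GATA factor of stem cells and of mast cell precursors at chr6:88193891-88207032, was well above background on no array. Its spot was 0.992 to 1.03 times as bright as the background surface fitted by the software, which put a surrogate value in place of the signal on all 4 arrays. The resulting values of -8.38 and -8.56 with EMPTY and -8.31 and -8.17 with miR-195 are therefore not read as a difference. Of 9 markers of mast cells and basophils, in which *Gata2* is known to be active, 5 were well above background on no array and 3 were tested. None of the 3 passed the threshold, with 1 mean higher and 2 lower and a median log2 fold change of -0.26. *Cpa3* was separated downward (-0.65, SE 0.23, adjusted p = 0.578 from limma). It was the only 1 of the 3 so separated, and 0 were separated upward, against 14.7% and 23.1% of all genes. The summed signal of the 9 was 1.22 and 1.38 with EMPTY and 1.29 and 1.08 with miR-195.

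The partners of LMO2 and GATA2 were measured, unlike *Gata2*. Of 14 listed genes 13 were tested and none passed the threshold, with 6 means higher and 7 lower, a median of -0.02 (0.04 with the mean of a gene's probes), and 2 genes separated upward and 3 downward, against 23.1% and 14.7% of all genes. *Tal1*, the basic helix-loop-helix factor of the complex, stood at -3.88 and -3.51 in the EMPTY cells and at -3.27 and -3.23 in the miR-195 cells. The groups did not overlap, and the difference was 0.45 on the log2 scale (SE 0.17, adjusted p = 0.583). It was 0.27 without EMPTY replicate 1. *Gata1*, the erythroid GATA factor, measured -3.43 and -2.70 with EMPTY and -2.71 and -2.66 with miR-195. EMPTY replicate 1 alone was low, and the log2 fold change of 0.38 (SE 0.26, adjusted p = 0.821) was 0.01 without it. The highest value of the list was 0.63 for *Erg* (SE 0.38, adjusted p = 0.79 from limma). This ETS factor was well above background on 3 arrays only, and its groups overlapped. The lowest was -0.30 for *Zfpm1* (SE 0.13, adjusted p = 0.655 from limma). *Zfpm1*, *Gata3* (-0.30) and *Tcf12* (-0.30) were the genes separated downward.

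The GFI repressors were both expressed, and neither passed the threshold. *Gfi1*, which restrains stem cell division and is needed for neutrophils, lies at chr5:107716655-107725805 and gave 1.51 and 1.69 with EMPTY and 1.73 and 1.82 with miR-195. The groups did not overlap, but the gap between the EMPTY replicates exceeded that between EMPTY replicate 2 and miR-195 replicate 1. The log2 fold change was 0.17 (SE 0.13, 95% interval -0.17 to 0.51, adjusted p = 0.836). It was 0.08 without EMPTY replicate 1, 0.26 without EMPTY replicate 2 and 0.07 with scaling by the median.

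*Gfi1b*, the paralog of the erythroid and megakaryocytic lineages at chr2:28609450-28621982, stood at 1.63 and 1.93 in the EMPTY cells and at 1.85 and 1.46 in the miR-195 cells. The replicates of each virus differed more than the viruses did. The log2 fold change was -0.13 (SE 0.20, 95% interval -0.64 to 0.38, adjusted p = 0.927), and its sign turned without EMPTY replicate 2 (0.02) or without miR-195 replicate 2 (0.07). Of 9 markers of erythroid and megakaryocytic cells, 6 were tested, and *Klf1* and *Gp1ba* were among those well above background on no array. None of the 6 passed the threshold, with 2 means higher and 4 lower and a median log2 fold change of -0.40. Of the 6, 0 were separated upward and 1 downward, against 23.1% and 14.7% of all genes. *Itga2b*, well above background on 3 arrays only, was the gene separated downward (-1.72, SE 0.69, adjusted p = 0.623 from limma). *Epor*, also well above background on 3 arrays only, had the lowest value (-2.30, SE 1.52, adjusted p = 0.81). On miR-195 replicate 2 it was at -7.93, under the dimmest level called well above background there (-6.13). The other arrays gave -3.35 to -3.25. The summed signal of the 9 was 2.7 and 3.72 with EMPTY and 3.66 and 2.01 with miR-195, carried to 84.8% to 89.1% by the globin gene *Hbb-b1*. It was lowest on the array where *Gfi1b* was lowest, and its part in the *Gfi1b* values was not tested. Of 8 markers of granulocytes and monocytes, the lineages in which *Gfi1* is known to act, all 8 were tested and none passed the threshold, with 6 means higher and 2 lower and a median log2 fold change of 0.20. Of the 8, 2 were separated upward and 0 downward, against 23.1% and 14.7% of all genes. *Mpo*, the myeloperoxidase of early granulocytes, was separated upward (0.72, SE 0.24, adjusted p = 0.555), as was *Ctsg* (0.96, SE 0.44, adjusted p = 0.668). The summed signal was 214 and 224 with EMPTY and 221 and 198 with miR-195, of which *Ly6c1* alone carried 93% to 94.8%.

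Among 8 corepressors and relatives of GFI1 and GFI1B, 7 were tested and none passed the threshold, with 4 means higher, 3 lower, a median of 0.06, and 3 genes separated upward and 1 downward, against 23.1% and 14.7% of all genes. *Insm1*, a zinc finger repressor that carries the same SNAG motif as GFI1, measured -4.65 and -4.33 with EMPTY and -4.10 and -2.83 with miR-195. The groups were separate, and most of the distance was on miR-195 replicate 2. The log2 fold change was 1.03 (SE 0.44, adjusted p = 0.643), 0.39 without miR-195 replicate 2 and 1.67 without miR-195 replicate 1 (adjusted p = 0.0126 in limma, where the miR-195 side is again 1 array and is assumed to vary like the EMPTY arrays). *Pias3*, a binding partner of GFI1, gave -4.07 and -3.87 with EMPTY and -3.78 and -3.65 with miR-195 (log2 fold change 0.25, SE 0.14, adjusted p = 0.745). The mean over the probes of *Pias3* was only 0.04, so its separation upward rests on the probe taken. *Kdm1a*, the demethylase recruited by both repressors, had an outlier spot on 1 array and was not tested.

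*Mecom* and *Hlf*, the factors of the most immature cells, were not measurable. For *Mecom*, at chr3:29951296-30509759, the first probe stood at -7.68 and -8.17 in the EMPTY cells and at -7.31 and -8.23 in the miR-195 cells. The other probe measured -8.42 and -7.23 with EMPTY and -8.31 and -8.15 with miR-195. The order of the arrays differed between the probes, and neither was well above background on any array, where the dimmest probes so called had levels of -6.51 to -6.13. *Hlf*, a basic leucine zipper factor of the PAR family at chr11:90336535-90390917, gave -6.97 and -5.82 with EMPTY and -8.38 and -6.41 with miR-195. Only EMPTY replicate 2 was well above background, and the miR-195 arrays lay on either side of EMPTY replicate 1. No fold is given for *Hlf*, since the bound that the background allows is under 1.

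Relatives of MECOM and HLF were measured in 7 of 8 cases, and none passed the threshold. The means were higher for 4 and lower for 3, with a median of 0.04, 2 genes separated upward and 0 downward, against 23.1% and 14.7% of all genes. *Tef*, a PAR factor like HLF, stood at 3.47 and 3.50 in the EMPTY cells and at 3.58 and 3.74 in the miR-195 cells (log2 fold change 0.17, SE 0.12, adjusted p = 0.825). *Ctbp2*, a corepressor that MECOM binds, measured 1.03 and 0.99 with EMPTY and 1.03 and 0.72 with miR-195 (log2 fold change -0.14, SE 0.15, adjusted p = 0.897). It was 0.01 without miR-195 replicate 2. *Prdm16*, the paralog of *Mecom*, was well above background on no array.

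Among 14 surface and other genes of stem and progenitor cells, the detection was again mixed. *Slamf1*, *Tek*, *Esam* and *Fgd5*, which are known from the most immature cells, were well above background on no array and *Procr* on 2. The 9 tested genes included *Kit*, *Cd34*, *Flt3* and *Myb*, and none passed the threshold. Their means were higher for 5 and lower for 4, with a median of 0.14 and 4 genes separated upward and 1 downward, against 23.1% and 14.7% of all genes. *Kit*, the receptor of SCF, gave 1.492 and 1.496 with EMPTY and 1.66 and 1.87 with miR-195. The groups were separate, with a difference of 0.27 on the log2 scale (SE 0.13, 95% interval -0.08 to 0.62, adjusted p = 0.697). Of 8 markers of early lymphoid progenitors all 8 were tested and none passed the threshold, with 5 means higher and 3 lower and a median log2 fold change of 0.10. Of these 8, 3 were separated upward and 2 downward, against 23.1% and 14.7% of all genes. *Rag1*, a recombinase subunit, was separated upward (0.52, SE 0.16, adjusted p = 0.535) and *Dntt*, the terminal transferase, downward (-0.54, SE 0.21, adjusted p = 0.605). The summed signal was 113 and 114 with EMPTY and 106 and 108 with miR-195, of which *Ly6d* carried 51.4% to 62.4%.

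*Myc* and *Mycn*, which drive ribosome production and cell division, differed between the viruses by no more than their standard errors. *Myc*, at chr15:61985341-61990361, measured 1.37 and 1.57 with EMPTY and 1.64 and 1.56 with miR-195. EMPTY replicate 1 was low and the other arrays were alike, so that the log2 fold change of 0.13 (SE 0.13, 95% interval -0.22 to 0.48, adjusted p = 0.889) was 0.03 without that array and 0.23 without EMPTY replicate 2. *Mycn*, at chr12:12936093-12941836, gave 2.60 and 2.85 with EMPTY and 2.80 and 2.84 with miR-195. Again EMPTY replicate 1 alone was low. The log2 fold change was 0.10 (SE 0.14, 95% interval -0.27 to 0.46, adjusted p = 0.922), turning to -0.03 without EMPTY replicate 1 and reaching 0.22 without EMPTY replicate 2.

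In the network of MYC and its MAX partners the differences also went both ways. Of 12 genes 10 were tested and none passed the threshold, with 5 means higher and 5 lower, a median of -0.02 (-0.07 with the mean of a gene's probes), and 3 genes separated upward and 2 downward, against 23.1% and 14.7% of all genes. *Mxd4*, an antagonist of MYC, is counted by a probe at -1.36 to -1.21, with a difference of 0.08. Its other probe was at -7.79 on miR-195 replicate 2 against 0.58 to 0.82 on the other arrays (log2 fold change -4.19, SE 2.80, adjusted p = 0.811). The -7.79 is under the dimmest level called well above background on that array (-6.13). That value alone gave the other probe the lower mean signal, by which the counted probe was chosen. *Mga*, a MAX partner that represses, stood at -2.05 and -2.40 in the EMPTY cells and at -2.18 and -1.51 in the miR-195 cells (log2 fold change 0.38, SE 0.27, adjusted p = 0.822). *Mxd3*, an antagonist of MYC, measured -0.61 and -0.36 with EMPTY and -0.58 and -1.07 with miR-195 (log2 fold change -0.34, SE 0.21, adjusted p = 0.800). Both differences rested on miR-195 replicate 2, without which they were 0.05 and -0.09. *Mxi1* and *Zbtb17* were well above background on no array.

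All 18 genes known to be induced by MYC were tested, among them genes of ribosome production, nucleotide synthesis and the cell cycle, and none passed the threshold. Their means were higher for 10 and lower for 8, with a median of 0.00, 2 genes separated upward and 2 downward, against 23.1% and 14.7% of all genes. *Cad*, the enzyme that starts pyrimidine synthesis, gave -3.99 and -3.98 with EMPTY and -3.73 and -3.56 with miR-195. These groups were separate, with a difference of 0.34 on the log2 scale (SE 0.13, adjusted p = 0.582). *Ccnd2*, a cyclin of the early cell cycle, stood at 4.48 and 4.52 in the EMPTY cells and at 4.44 and 4.03 in the miR-195 cells. It was lower on miR-195 replicate 2, and the log2 fold change of -0.27 (SE 0.17, adjusted p = 0.806) was -0.06 without that array.

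**Figure D3:**
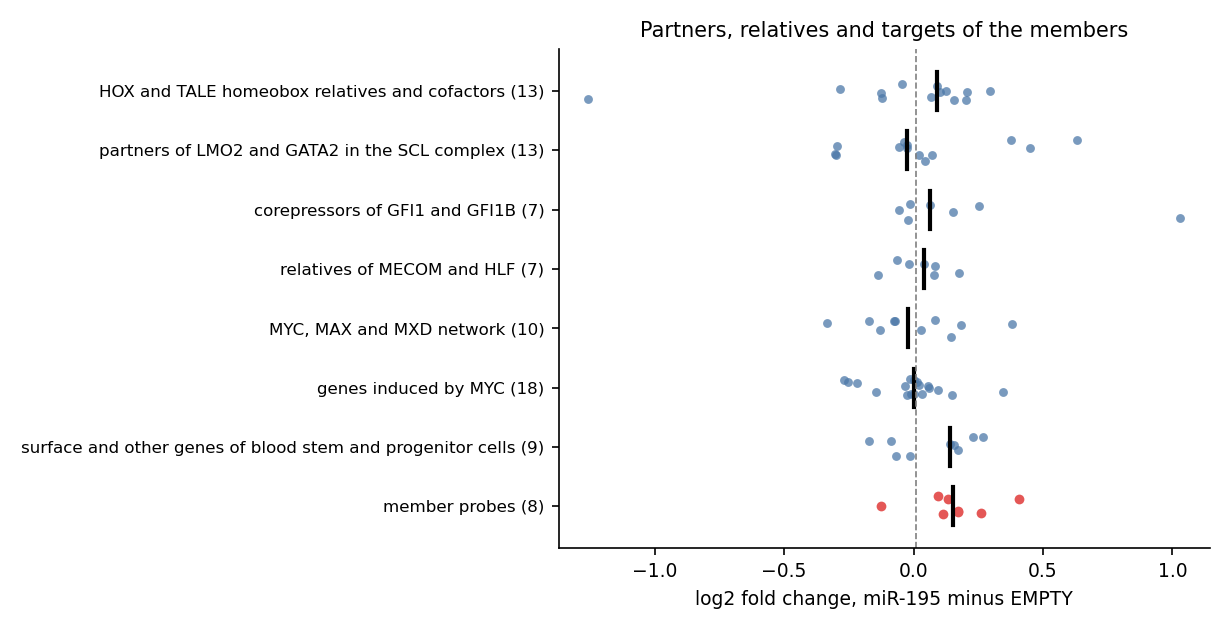
Log2 fold change, miR-195 minus EMPTY (x axis), of the tested genes of each list, with 1 point per gene, a black bar at the median of each list, the number tested in brackets and, in red, the 8 tested probes of the factors. The dashed line is the median of all tested genes (0.01), and the list medians lie between -0.02 and 0.14. *Pbx3* (-1.26) and *Insm1* (1.03) lie farthest out.

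The intervals show how large a difference between the viruses the spread of these arrays leaves possible. With 2 arrays per virus, whose spread may be technical, such limits do not bound the change between separate embryos or cultures. On the linear scale, the upper 95% limit was 1.31-fold for *Gfi1b*, 1.59-fold for the first *Hoxa9* probe and 2.03-fold for *Meis1*. The lower limit was 0.642-fold for *Gfi1b* and 0.901-fold for the first *Hoxa9* probe. Across the arrays, EMPTY replicate 1 was the lowest array for 5 of them, against 32.6% of all tested probes, and miR-195 replicate 2 the highest for 5, against 34.3%. *Myc* and *Mycn* were highest elsewhere, and *Gfi1b* was lowest on miR-195 replicate 2.

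**Figure D4:**
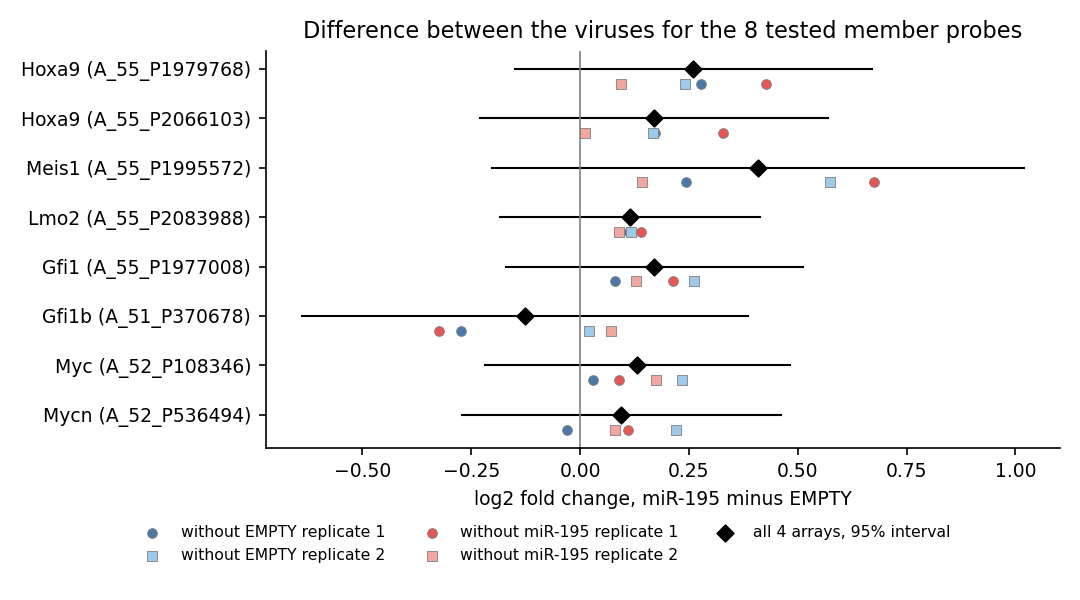
Log2 fold change, miR-195 minus EMPTY (x axis), for the 8 tested probes, with all 4 arrays (black diamonds, lines for the 95% interval from limma) and with each array left out in turn (coloured points). Every interval spans 0, and *Meis1* runs from 0.14 without miR-195 replicate 2 to 0.68 without miR-195 replicate 1. *Gfi1b* and *Mycn* have points on both sides of 0.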

How the data were processed

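Gene expression was analysed on 4 Agilent Whole Mouse Genome arrays with a single dye. The authors deposited the scanner software's processed intensity for each spot and a table of log2 values normalized by them to the 75th percentile of each array. Per the values given for each spot the software subtracted its fitted spatial surface rather than the local background and put a surrogate value at dim spots. The file headers give version 9.1.3.1 for the background subtraction step, and the submitters' processing notes name version 11.5.1.1 of the software. Spots of a probe were averaged as log2 intensity, from which the 75th percentile of the array was subtracted. That percentile was 908 to 1137 intensity units, the median local background 38 to 39, and no spot was saturated. A probe was kept where at least 1 virus had both its arrays well above background (23824 probes), less 101 with an outlier spot (21 to 65 such spots per array).

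Viruses were compared in limma 3.58.1 (lmFit, then eBayes) under R 4.3.3 (files were read by data.table, version 1.17.8), two-sided, with Benjamini-Hochberg adjustment over all 23723 probes. For a gene in a list, the probe with the highest mean signal was taken. The limma fit was also run on simulated data with independent noise for each probe and added differences. Those data held no effect across a whole array, so they cannot show how the fit behaves with one. Named were every probe of the 10 factors, *Ebf1* and, from each list, the 2 genes of largest difference among those well above background on all 4 arrays. Not every gene so chosen is reported here. *Erg*, *Zfpm1*, *Gata3*, *Tcf12*, *Mxd4*, *Kdm1a*, the markers and genes not measured were named after their values were seen. The factors and lists were chosen with earlier results of these data known. Gene positions are those of GRCm38.p6. The number of arrays limits the precision. The alternatives comprised other backgrounds, scalings and filters, the authors' table, robust estimation, the methods' t-test (a one-sample test of the 2 differences between samples of like number), averaging over a gene's probes, the replicate number as a block and each array left out.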

Additional observations from a re-analysis of the deposited data

How the results depend on the processing

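None of the 8 tested probes of the factors passed the threshold under any of the 18 alternatives. At an unadjusted p of 0.05 there were 2 such probes without miR-195 replicate 1 and 0 otherwise. *Mycn* turned to -0.0026 with scaling by the median, and *Gfi1b* to 0.02 without EMPTY replicate 2. With each array left out in turn, *Mycn* ranged from -0.031 to 0.22 and *Gfi1b* from -0.32 to 0.070. The other 6 probes kept their sign under all 18. Scaling by the median gave 6 of 8 means higher. Over all probes, 0 passed in the comparison as reported, 3 with scaling by the median, 5 with the replicate block, 0 with the block crossed (an alternative added after seeing the data) and 1133 at the unadjusted p of the methods' t-test (0 after adjustment), which takes differences within replicate numbers. Each array left out in turn gave 0 to 900, and 0 to 2 genes of the lists, the 2 being *Pbx3* and *Insm1* without miR-195 replicate 1, where the remaining miR-195 array is assumed to vary like the EMPTY arrays. The share of all probes with a higher mean was 53%, 64.5% after normexp and 33.1% with scaling by the median. At an unadjusted p of 0.05, 1482 probes were higher and 497 lower, against 3417 and 336 after normexp, 1267 and 694 after quantile normalization and 1112 and 808 with scaling by the median. *Ebf1*, at -0.0066, turned to 0.0080 after normexp, 0.013 after quantile normalization and 0.012 with the percentile over detected probes, and ranged from -0.096 to 0.083 with each array left out. With a gene's probes averaged, the median of the partners of LMO2 and GATA2 went from -0.02 to 0.04 and that of the MYC network from -0.02 to -0.07. Deviations of samples with the same number correlated with r = -0.101. With 2 arrays per virus this value cannot decide whether the numbers pair the samples, on which the methods' t-test relies. The block changed no call of a factor. Signal over background limits *Gata2*, *Mecom* and *Hlf*, whose levels differed from the authors' table by up to 1.099. The causes were not tested.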
